A study of Mus musculus with 6 samples.

Results

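The nuclear genes of oxidative phosphorylation were taken from the count tables by symbol (Nduf subunit genes of the a, b, c, s and v series, Sdha to Sdhd, Uqcr genes, Cyc1, Cox4 to Cox8 genes and Atp5 genes). The rule found 85 of 24062 genes, of which 35 belong to complex I, 4 to complex II, 9 to complex III, 19 to complex IV and 15 to complex V. The other 3 (Cox7a2l, Atp5s and Atp5sl) match by name but were kept out of the complex sums because they were not taken as subunits of the complex. Ndufa4 and its paralog Ndufa4l2 were placed with complex IV. CD31+ckit+ cells were sorted from the aorta-gonad-mesonephros (AGM) region of embryonic day 10.5 Gata2Venus embryos of strain C57BL/6JOlaHsd into a Vmed (G2Vi) and a Vhigh (G2Vh) fraction. Both fractions carry the same reporter allele, in which Venus is transcribed together with Gata2, they received no treatment, and they differ in the Venus level of the gate. Gata2 itself had 50.3, 29.4 and 68.3 CPM (counts divided by the gene total of the library and scaled to 1000000) in Vmed replicates 1, 2 and 3 and 39.2, 82.5 and 142 CPM in Vhigh, so that the library labelled Vhigh replicate 1 was below 2 of the Vmed libraries. RNA of 3 libraries per fraction was sequenced, and the libraries hold 8296831 to 12035206 counts on genes. Nothing in the labels ties a library to particular embryos, so that p-values measure the spread between these libraries.

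Oxidative phosphorylation couples the oxidation of NADH and succinate to the synthesis of ATP. Complex I and complex II feed electrons into the ubiquinone pool, complex III passes them to cytochrome c, complex IV (cytochrome c oxidase) hands them to oxygen, and complex V (ATP synthase) uses the proton gradient that results. Most subunits are encoded in the nucleus and the rest in mitochondrial DNA, and several complex IV subunits exist as a widely expressed and a tissue-restricted isoform. Blood stem and progenitor cells are known for low mitochondrial activity relative to their more mature progeny.

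Markers of blood progenitors and of other cell types were summed by library, and 0 of them passed the adjusted threshold between the fractions. All 10 stem and progenitor markers had a positive log2 fold change (Vhigh over Vmed) and summed to 487 to 1020 CPM in Vmed and to 1051 to 2684 CPM in Vhigh. The 9 macrophage markers found in the table summed to 800.4 to 1672 CPM in Vmed and 116 to 492 in Vhigh, the 7 mesenchyme markers to 1293 to 4761 and 270 to 551, and the 8 endothelial markers to 1159 to 4033 and 854 to 2728. The 9 erythroid markers summed to 174 to 596 CPM in Vmed and 91.4 to 215 in Vhigh. Of these, Hba-a1, Hba-a2, Hbb-bs and Hbb-bt were at 0 in all libraries. Reads with several places in the genome were not counted, and shared sequence was not searched for these genes. Their counts of 0 thus do not show that their RNA was absent. Fewer cells of a type and less RNA per cell cannot be told apart in these bulk libraries, and the part of other cell types in the values that follow was not tested.

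Upstream sequences are shown first as examples of a search for motifs, and the part of the motifs in the levels was not tested. Cox6a1, the widely expressed form of subunit 6a, is shown because its upstream stretch holds the most copies of the motifs searched. Cox7a1, a tissue-restricted form of subunit 7a, is shown because its upstream stretch holds none. A lack of matches was not particular to tissue-restricted forms. The widely expressed Cox7a2 had none either, while the tissue-restricted Cox6b2 and Cox7b2 each had 1 SP1 match. The stretches of Cox6a1 and Cox7a1 lie upstream of the annotated gene in GRCm38.p6 (RefSeq), at chr5:115348982-115349208 on the minus strand and chr7:30183921-30184143 on the plus strand. Capitals mark matches to the motifs of NRF1 (GCGCNTGCG) and SP1 (GGGCGGG) on either strand, and the first run of capitals holds overlapping matches on both strands.
Cox6a1: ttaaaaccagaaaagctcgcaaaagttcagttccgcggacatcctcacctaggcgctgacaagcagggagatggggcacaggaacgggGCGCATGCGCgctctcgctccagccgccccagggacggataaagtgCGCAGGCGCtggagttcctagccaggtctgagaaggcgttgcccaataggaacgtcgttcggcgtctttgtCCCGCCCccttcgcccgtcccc
Cox7a1: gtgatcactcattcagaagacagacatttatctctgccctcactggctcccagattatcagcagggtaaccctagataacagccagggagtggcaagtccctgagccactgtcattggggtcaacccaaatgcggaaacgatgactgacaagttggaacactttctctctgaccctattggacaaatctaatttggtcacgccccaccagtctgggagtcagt

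A promoter of 250 bases before and 50 bases after the start was on hand for 69 of the 85 genes. A gene with several promoters was counted once, with a match in any of them. The NRF1 motif, that of a regulator known for nuclear genes of mitochondrial proteins, occurred in 24 of the 69 (34.8%). Among all 16781 genes with a promoter it occurred in 9.82%. The motif of YY1 (AAGATGGC) occurred in 15.9% against 3.62%, that of ETS factors (CCGGAAG) in 23.2% against 12.8%, and that of SP1 in 34.8% against 37.3%. By complex, the genes with a promoter that held the NRF1 motif were 9 of 31 in complex I, 2 of 3 in complex II and 3 of 5 in complex III. They were 1 of 13 in complex IV and 8 of 14 in complex V. These are matches of letters on both strands and not measured binding.

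The summed levels of each complex overlapped between Vmed and Vhigh, and the difference of the means was smaller than the SD of the Vmed libraries for each of them except complex V, where it was 1.17-fold. Complex V summed to 7118, 5573 and 6052 CPM in Vmed replicates 1, 2 and 3 and to 8103, 6822 and 6951 CPM in Vhigh. The means were 6248 ± 791 and 7292 ± 705 CPM (SD, n = 3), and the ratios of same-numbered libraries, Vhigh over Vmed, were 1.14, 1.22 and 1.15.

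Complex I summed to 8815, 5028 and 4194 CPM in Vmed and 9325, 6208 and 4304 CPM in Vhigh, a ratio of means of 1.10, with same-numbered ratios of 1.06, 1.23 and 1.03. Complex II summed to 1942, 1699 and 1037 CPM in Vmed and 2005, 1829 and 1150 CPM in Vhigh, a ratio of 1.07, with same-numbered ratios of 1.03, 1.08 and 1.11. In both, replicate 1 was the highest and replicate 3 the lowest library of its fraction, and the distance between them was larger than that between the fractions. Complex III summed to 2626, 1854 and 1686 CPM in Vmed and 2444, 2508 and 2060 CPM in Vhigh, a ratio of 1.14. Complex IV summed to 4440, 2192 and 2769 CPM in Vmed and 4626, 2901 and 2534 CPM in Vhigh, a ratio of 1.07. Same-numbered ratios were 0.931, 1.35 and 1.22 in complex III, 1.04, 1.32 and 0.915 in complex IV, and 1.06, 1.25 and 1.08 over all 85 genes. All 85 genes together took 1.59% to 2.53% of gene counts in Vmed and 1.72% to 2.68% in Vhigh.

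**Figure D1:**
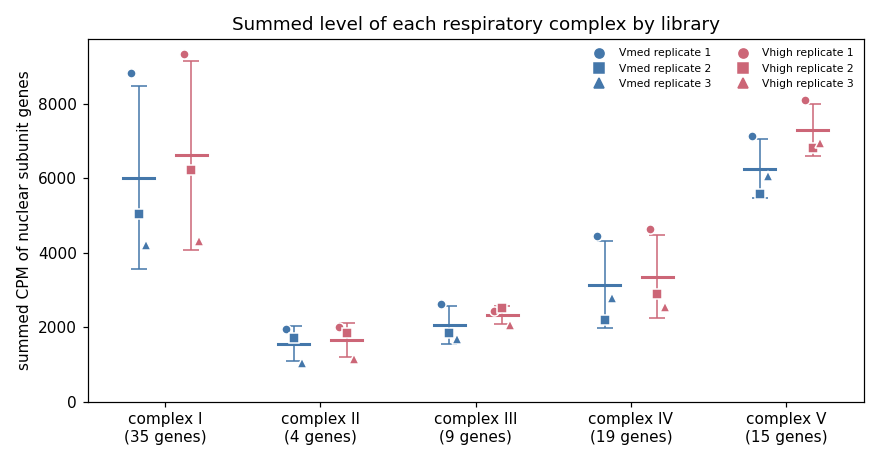
Summed CPM (y axis) of the nuclear subunit genes of each complex (x axis), with 1 point per library, the fraction mean as a bar and the SD as whiskers (n = 3). Replicate 1 has the highest sum of its fraction in complexes I, II, IV and V, and the fractions overlap in every complex.

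Single genes were tested with the quasi-likelihood method of edgeR over 12688 genes that passed a filter on low counts, 78 of the 85 among them. The 7 that did not pass were Atp5g2, Cox6a2, Cox7b2, Cox8b, Cox8c, Ndufa4l2 and Ndufs5. With Benjamini-Hochberg adjustment, 0 of the 78 passed 0.05 beside 0.0% of all genes tested, also with the replicate number as a block (0.0%). At an unadjusted p under 0.05 stood 1 of the 78, Cox4i2, higher in Vhigh, beside 0.867% of all genes higher and 1.17% lower. DESeq2's Wald test called 51 genes and edgeR's likelihood ratio test 21, with 0 of the 78 in either. The 3 libraries of Vhigh lay above those of Vmed in 3 of the 78, Cox4i2 and Cox7a1 among them, beside 4.15% of all genes, and below them in 0, beside 4.71%.

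The tested members had a median log2 fold change of 0.11, with 58 positive and 20 negative values, beside −0.02 for all genes tested. Of the 78, 24 were higher in Vhigh in all 3 same-numbered pairs (30.8%, beside 15.2% of all genes) and 2, Sdhb and Ndufa10, were lower in all 3 (17.2% of all genes were at or below 0 in all 3). The median turned to −0.31 without Vhigh replicate 1, the library in which Gata2 was low, and was 0.58 without Vmed replicate 1 and 0.38 without Vhigh replicate 3. Their fold changes were small in size, with 2 of 78 over 1 in absolute log2 value (2.56%), compared with 31.3% of all genes. No such share was computed for genes of like level. The median within-fraction SD of log2(CPM + 1) was 0.66 for the members and 1.16 for all genes tested. It was 0.61 for 1381 tested genes in the middle 50% of member levels, so that a small spread was not particular to the members. The median standard error was 0.58 for the members and 1.28 for all genes, and 0.28 for the members with the replicate block.

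**Figure D2:**
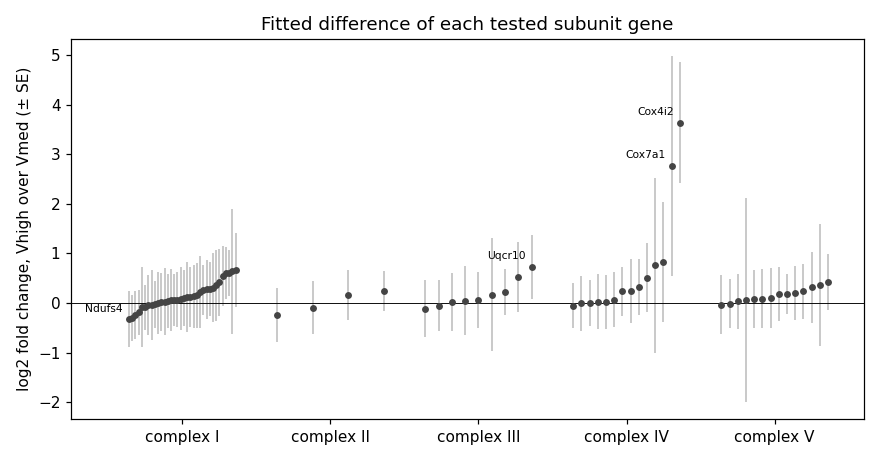
Log2 fold change of Vhigh over Vmed (y axis) with its standard error for each tested subunit gene, ordered within its complex (x axis). Apart from Cox4i2 at 3.64 and Cox7a1 at 2.76, the genes lie between −0.33 and 0.83.

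In complex I, which takes electrons from NADH, 24 of 34 tested genes had a positive log2 fold change, with a median of 0.10. The accessory gene Ndufc1 had the highest fold change (0.67, SE 0.74), with 170, 89.7 and 56.9 CPM in Vmed and 326, 116 and 56.3 CPM in Vhigh, so that it was set apart by Vhigh replicate 1. Ndufs4, an accessory subunit needed for the stability of the complex, had the lowest (−0.33, SE 0.57). Ndufa9 had the highest CPM of complex I, and Ndufb8 the highest level per length (495 CPM per kb of transcript).

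Succinate dehydrogenase is complex II and an enzyme of the citric acid cycle. Its catalytic flavoprotein gene Sdha had 417, 622 and 443 CPM in Vmed and 595, 679 and 509.9 CPM in Vhigh, and a log2 fold change of 0.24 (SE 0.40). Sdhb, the iron-sulfur subunit, had 609, 399 and 254 CPM in Vmed and 597, 349.8 and 241 CPM in Vhigh. It was lower in Vhigh in every same-numbered pair, by less than its libraries of replicates 1 and 3 differed. The membrane anchor genes Sdhc and Sdhd had log2 fold changes of −0.24 (SE 0.55) and 0.16 (SE 0.50).

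In complex III, Uqcr10, a small subunit, had the highest fold change (0.72, SE 0.64), with 281, 173 and 106 CPM in Vmed and 525, 293 and 111 CPM in Vhigh. Cyc1, which carries the heme of cytochrome c1, had the lowest (−0.11, SE 0.58), with 205, 195 and 341 CPM in Vmed and 81.0, 265 and 369.9 CPM in Vhigh. The lowest value of Cyc1 was in Vhigh replicate 1, where most members were high. The core gene Uqcrc2 had 786, 527 and 250.3 CPM in Vmed and 609.7, 523 and 406 CPM in Vhigh.

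The isoforms of complex IV gave the largest differences. Cox4i2, the form of subunit 4 known from lung and from low oxygen, had 31, 37 and 14 counts in Vmed and 693, 465 and 124 counts in Vhigh. All Vhigh libraries lay above all Vmed libraries, at 3.15 ± 1.55 CPM and 39.4 ± 27.5 CPM (SD, n = 3). The log2 fold change was 3.64 (SE 1.23), with an unadjusted p of 0.0227 and an adjusted p of 0.9998 in edgeR, and an adjusted p of 0.155 in DESeq2. Without Vhigh replicate 1 it was 2.91, and over the libraries left out in turn it was at most 4.14. Cox4i2 lies on chromosome 2 of GRCm38 (152754173 to 152765037).

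Cox4i1, the widely expressed form, had 1313, 729.6 and 798 CPM in Vmed and 1140, 881 and 757 CPM in Vhigh (log2 fold change −0.06, SE 0.45). It had the highest level per length of all members, 1257 CPM per kb. Of the counts on both forms, Cox4i2 took 0.269%, 0.608% and 0.180% in Vmed and 5.40%, 4.63% and 1.34% in Vhigh, so that Cox4i1 remained the main form in all 6 libraries.

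Cox7a1, the form of subunit 7a known from heart and skeletal muscle, had 0, 6 and 6 counts in Vmed and 66, 14 and 17 in Vhigh. Its counts were low, so that its separation of the fractions is uncertain. Its log2 fold change was 2.76 (SE 2.22), and Vhigh replicate 1 held most of its counts. Without that library the log2 fold change was 1.51, without Vmed replicate 1 it was 2.20, and at most it was 3.31. Cox7a2, the widely expressed form, had a log2 fold change of 0.02 (SE 0.56). Cox6b2, known from testis, had 245, 96 and 97 counts in Vmed and 627, 217 and 103 counts in Vhigh, a log2 fold change of 0.83 (SE 1.22) with overlapping fractions.

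Ndufa4l2, known as a hypoxia-induced paralog of Ndufa4, had 104, 25 and 0 counts in Vmed and 0 in each Vhigh library. Against a floor of 3 counts per library (0.249 to 0.281 CPM in Vhigh), its Vmed mean of 4.97 CPM was at least 18.5-fold higher, and at least 5.60-fold higher without Vmed replicate 1. It did not pass the filter on low counts, and Vmed replicate 3 held none. Cox7b2 had 128 counts in Vhigh replicate 1 and 0 to 4 in the other libraries. Cox6a2, Cox8b and Cox8c, forms known from muscle or testis, had at most 17 counts in any library.

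**Figure D3:**
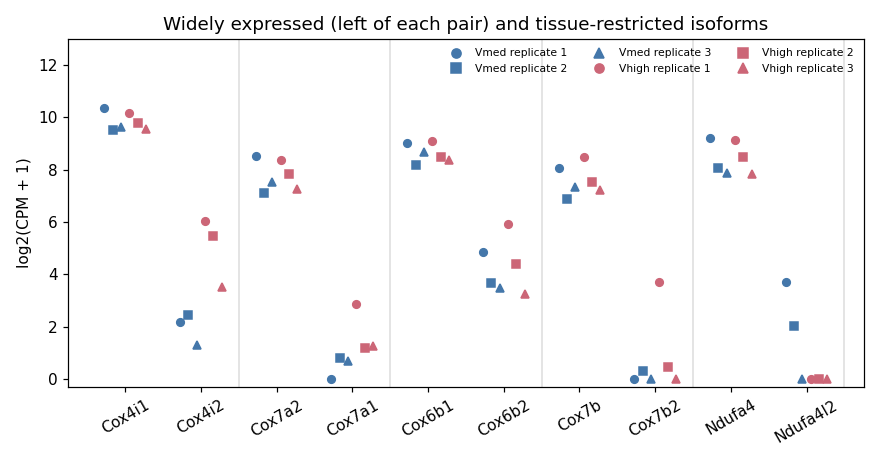
Level in each library, as log2(CPM + 1) (y axis), of 5 widely expressed genes of complex IV and, to the right of each, its tissue-restricted paralog. Cox4i2 separates the fractions with 3.15 CPM on average in Vmed and 39.4 in Vhigh, Ndufa4l2 is above 0 in Vmed replicates 1 and 2 alone, and the widely expressed forms overlap.

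In complex V, 12 of 14 tested genes had a positive log2 fold change, with a median of 0.14. The genes of the catalytic head were the highest in CPM. Atp5a1, the alpha subunit, had 1517.5, 1894 and 1524 CPM in Vmed and 1769, 2154 and 1809 CPM in Vhigh (log2 fold change 0.18, SE 0.40). Atp5b, the beta subunit, had 836, 1030 and 2355 CPM in Vmed and 1428, 1296 and 3010 CPM in Vhigh (0.42, SE 0.56). The ratio of Atp5a1 to Atp5b counts was 1.81, 1.84 and 0.647 in Vmed and 1.24, 1.66 and 0.601 in Vhigh, so that in both fractions it was lowest in replicate 3. This ratio was chosen after the values were seen. Of the subunit c genes, which encode the same mature protein, Atp5g3 took 94.0% to 97.3% in Vmed and 90.9% to 97.7% in Vhigh of the counts it shared with Atp5g1. Exact copies elsewhere were found for 66.0% of the 50-base windows of Atp5g1 and for 0.0% of those of Atp5g3, so that this share is uncertain.

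The members varied with the replicate number. Over the 78 tested members, log2(CPM + 1) had a Pearson correlation of 0.92 to 0.97 between libraries of the same number, as a description. It was 0.81 to 0.95 between libraries of the same fraction and 0.81 to 0.94 between libraries that share neither. Replicate 1 was not closest to its own number. Vmed replicate 1 had 0.923 with Vhigh replicate 1, 0.951 with Vmed replicate 2 and 0.943 with Vhigh replicate 2. In log2(CPM + 1), the median difference of the 78 tested members, replicate 3 minus replicate 1, was −1.11 in Vmed and −1.20 in Vhigh. All genes tested had medians of 0.08 and 0.73. No such median was computed for genes of like level. Genes with a count numbered 14021 and 10427 in replicate 1 and 12709 and 13434 in replicate 3 (Vmed and Vhigh). The part of this number in the levels was not tested. Of the 78, 61 were lower in replicate 3 in both fractions and 10 were higher in both. Across the 78 members the replicate 3 minus replicate 1 differences of Vmed and Vhigh had a Pearson correlation of 0.73, and across all genes tested 0.35; members share libraries and depth, and are not independent.

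The exceptions were named after their values were seen. Uqcrfs1, the Rieske iron-sulfur subunit of complex III, had 48.9, 7.47 and 252 CPM in Vmed and 67.4, 25.9 and 256 CPM in Vhigh. Its within-fraction SD of log2(CPM + 1), 2.04, was the largest of the tested members, against a median of 0.66. Atp5l, Cyc1, Atp5b, Uqcrc1 and Atp5d were likewise higher in replicate 3 than in replicate 1 in both fractions. Of these, Atp5l had only 0.563 to 5.98 CPM, and its level is uncertain because 68.5% of its 50-base windows had an exact copy elsewhere.

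Spearman's rho between the replicate 3 minus replicate 1 difference and transcript length was 0.19 in Vmed and 0.47 in Vhigh over the 78 members, and 0.16 and 0.19 over 12247 genes. The tally of a library includes alignments with several places in the genome. Its share that fell on no gene also went with the number. It was 18.0% and 16.5% in replicate 1, 28.1% and 35.6% in replicate 2 and 7.996% and 7.09% in replicate 3 (Vmed and Vhigh). The part of transcript length or of this share in the levels was not tested. Within a number, the median Vhigh minus Vmed difference of the members was 0.09, 0.40 and 0.02, with 46, 73 and 41 of 78 higher in Vhigh, and all genes had −0.34, 0.17 and 0.04.

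**Figure D4:**
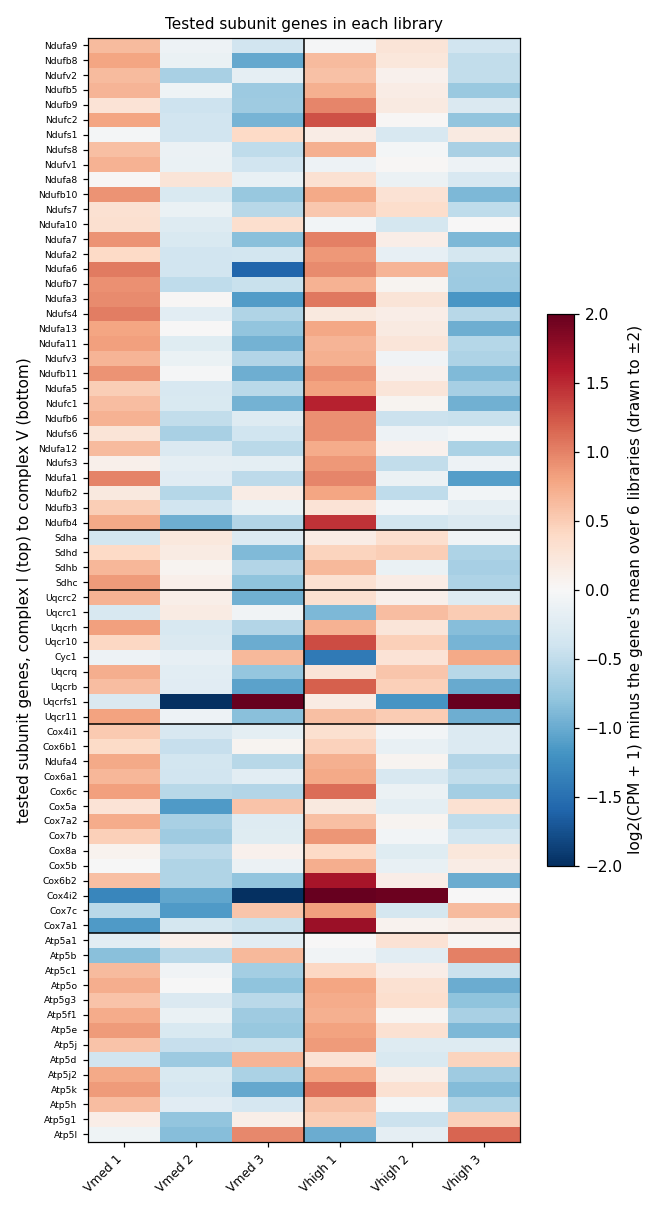
Level of the tested subunit genes shown (rows, by complex) in each library (columns), as log2(CPM + 1) minus the gene's mean over 6 libraries. Most rows are high in replicate 1 and low in replicate 3 of both fractions, and Uqcrfs1 and Atp5b run the other way.

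Some members had hardly any counts although their proteins are constant parts of a complex. Ndufs5, a complex I subunit, had 0, 0 and 2 counts in Vmed and 0, 1 and 10 in Vhigh, and Atp5g2, a subunit c gene, had 1 to 12 counts. Both share part or all of their transcript sequence with processed pseudogenes. An exact copy elsewhere was found for 100% of the windows of 50 bases, the read length, in the Atp5g2 transcript, for 68.5% in Atp5l, 66.0% in Atp5g1, 53.0% in Cox7c, 50.5% in Atp5h, 43.2% in Uqcrb and 41.2% in Ndufs5. These 7 genes had a median of 11.5 CPM per kb and the other 78 members one of 240 CPM per kb (239.8), although Atp5h and Uqcrb reached 177 and 239.6. An aligned read with several places in the genome was not counted for a gene, and such alignments were 41.3% to 57.7% of all tallied. The levels of these genes are uncertain. Most windows of Ndufs5 had no exact copy elsewhere, and the part of shared windows in the low counts was not tested. A stretch of coding sequence is given for 2 of them, each with an exact copy in another gene, at chr15:102665806-102665855 (GRCm38, minus strand, also in Gm10175) and chr4:123716030-123716079 (minus strand, also in BC002163).
Atp5g2: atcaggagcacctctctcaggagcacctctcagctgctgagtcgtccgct
Ndufs5: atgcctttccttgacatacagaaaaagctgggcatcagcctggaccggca

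**Figure D5:**
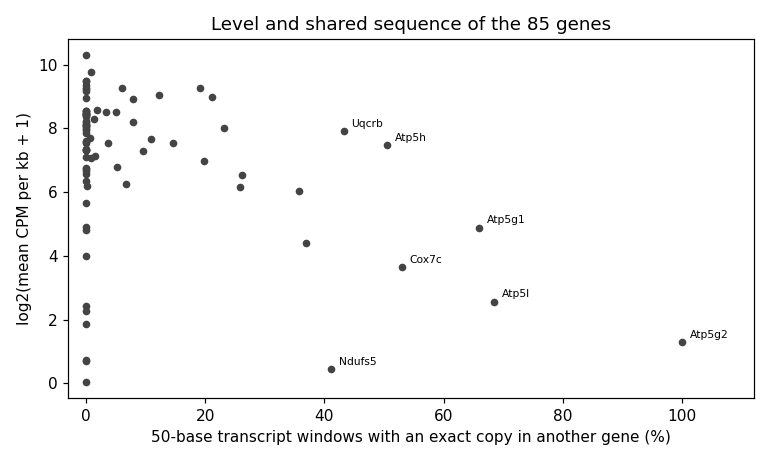
Mean level over 6 libraries, as log2(CPM per kb + 1) (y axis), against the percentage of 50-base transcript windows with an exact copy in another gene (x axis), 1 point per gene. Atp5g2, Atp5l, Cox7c, Atp5g1 and Ndufs5 are low with shares of 41.2% or more, and low genes at a share of 0 are the tissue-restricted isoforms and genes such as Atp5s.

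Other genes of the pathway were read from lists outside the members. Of 41 assembly factors tested, 30 had a positive log2 fold change (median 0.40), 15 of 21 electron carriers, ATP exporters and uncouplers did (0.19), 13 of 17 citric acid cycle and pyruvate dehydrogenase genes (0.17) and 11 of 15 regulators of mitochondrial biogenesis (0.25). In these lists 0 genes passed the adjusted threshold and 0 an unadjusted p under 0.05. Fractions did not overlap for 7 genes, which were higher in Vhigh, beside 4.15% of all genes tested. In the order of the lists these were 1 of 41, 3 of 21, 1 of 17 and 2 of 15. They were Coa5, an assembly factor of complex IV, Coq4, Coq6 and Pdss2, which make ubiquinone, Pdha1, the catalytic subunit of pyruvate dehydrogenase, Esrra, and Tfam, which packages mitochondrial DNA. Esrra and Pdss2 were low, so that their separation is uncertain. Esrra had 2.06, 0.482 and 0.515 CPM in Vmed and 2.16, 3.77 and 8.64 CPM in Vhigh. Pdss2 had 1.83, 6.15 and 0 CPM in Vmed. Tfam had 111.8, 60.4 and 50.03 CPM in Vmed and 170, 126 and 113 CPM in Vhigh (log2 fold change 0.86, SE 0.59). Its fractions lay close, at 111.8 CPM in Vmed replicate 1 and 113 CPM in Vhigh replicate 3. Pdha1 had 118, 200.3 and 86.9 CPM in Vmed and 333, 271 and 237 CPM in Vhigh (1.05, SE 0.49). The 13 genes of the complexes encoded in mitochondrial DNA had no row in the count tables under the symbols searched. They were thus not analysed.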

How the data were processed

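The authors prepared RNA with the mirVana kit and the SMARTer protocol, sequenced single reads of 50 bases and aligned them to GRCm38/mm10 with TopHat and Bowtie 1.1.2; HTSeq is named in the submitters' processing notes. The annotation, strand setting and counting mode are not given in the sources used here. They deposited raw counts per gene, without normalization, with 5 further lines per file that name no gene and stayed out of all totals; the genes held 22.8% to 45.0% of a library's tally.

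Vhigh was set against Vmed in edgeR 4.0.16 under R 4.3.3 (filterByExpr, TMM, quasi-likelihood test, Benjamini-Hochberg adjustment over 12688 genes). The common biological coefficient of variation, a measure of the spread between libraries, was 1.16. The code was tested on simulated data of smaller spread, which cannot show what the test recovers at the spread of these libraries. CPM were counts scaled to a gene total of 1000000. The floor of 3 counts is 0.249 to 0.362 CPM and covers counting error only. Sums over a complex were not tested. Transcript lengths and shared windows came from GENCODE M21 with bwa 0.7.19, allowing 0 or 2 mismatches, and promoters from RefSeq. Same-numbered libraries deviated together from their fraction means (r = 0.21, 0.21 and 0.39). Others had −0.29 to −0.01, but deviations from a mean of 3 libraries push these values below 0. Over all genes tested, Vmed replicates 2 and 3 correlated most with the same-numbered Vhigh library (0.832 and 0.841). Vmed replicate 1 correlated less with Vhigh replicate 1 (0.644) than with Vhigh replicate 2 (0.728). Whether the numbers pair the libraries is thus not settled, and the labels give only the number. No libraries repeated each other (lowest chi-square over its degrees of freedom 93.7). The values of 1 complex I gene are not reported here. Members and lists were chosen with earlier results of these data known. Genes named were the isoform sets, complex II, the highest and lowest fold change and level per complex, those at an unadjusted p under 0.05 or not overlapping between fractions, and up to 6 at 0 in a library but above 10 CPM in another. Alternatives were 3 normalizations, 2 filters, the replicate block, 2 other tests and each library left out; their use on the pathway lists was added after seeing the data.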

Additional observations from a re-analysis of the deposited data

How the results depend on the processing

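Under every alternative tried, 0 members passed the adjusted threshold, and the fold changes of Cox4i2, Cox7a1, Sdha, Atp5a1, Atp5g1 and Cox8a kept their sign wherever they were tested. Over the whole table, 37 genes passed with no filter, 21 by the likelihood ratio test and 51 by DESeq2, and leaving out a library gave 0 to 1; 0 genes of the pathway lists passed. The fit with the replicate block gave 0 genes, 0 members and a median member log2 fold change of 0.13. The block changed no call, and the fold changes of 7 of 78 tested members changed sign, among them that of Uqcrc2, from −0.05 to 0.071. Leaving out each library moved the median member log2 fold change between −0.31 and 0.58, and the log2 ratio of the sums −0.19 to 0.52 for complex I, −0.13 to 0.30 for complex II, 0.06 to 0.40 for complex III, −0.21 to 0.44 for complex IV, 0.14 to 0.33 for complex V and −0.027 to 0.41 for all members. With the median of log2(CPM + 1) in place of the sum, the difference was 0.15 for complex II and 0.48 for complex IV. Cox6a1 turned positive with RLE (0.0060) and DESeq2 (0.0060), and Cox6b1 with RLE (0.0067), DESeq2 (0.0066) and the total gene count (0.019). Fold changes took both signs for 64 of 78 tested members when a library was left out, and the genes named by the rule among them ranged as follows: Atp5b −0.018 to 1.03, Atp5g3 −0.27 to 0.65, Atp5h −0.51 to 0.37, Cox4i1 −0.33 to 0.29, Cox6a1 −0.62 to 0.42, Cox6b1 −0.35 to 0.24, Cox6b2 −0.37 to 1.49, Cox7a2 −0.40 to 0.57, Cox7a2l −0.26 to 0.89, Cox7b −0.25 to 0.74, Cyc1 −0.59 to 0.28, Ndufa4 −0.44 to 0.64, Ndufa9 −0.39 to 0.20, Ndufb8 −0.28 to 0.73, Ndufc1 −0.44 to 1.24, Ndufs4 −0.62 to 0.35, Sdhb −0.64 to 0.31, Sdhc −0.57 to 0.29, Sdhd −0.14 to 0.47, Uqcr10 −0.042 to 1.19, Uqcrc2 −0.39 to 0.42. Without a library, Cox4i2 ranged from 2.91 to 4.14 and Cox7a1 from 1.51 to 3.31. The cause of these changes was not tested. With 3 libraries per fraction, a two-sided exact permutation test cannot go below 0.1.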
